A study of Mus musculus with 17 samples.

Results

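The respiratory chain genes of mouse fetal liver cells were described here: 101 nuclear genes and 13 genes of the mitochondrial DNA, 114 of the 47069 genes counted. Members were taken by gene name. Nuclear members begin with Nduf, Sdha to Sdhd, Uqcr, Cox4 to Cox8 or Atp5, and mitochondrial members are the protein-coding genes mt-Nd, mt-Co, mt-Cytb and mt-Atp. Names with "-ps" were left out, but 4 nuclear members (Cox6c2, Ndufa11b, Ndufb4c and Ndufs6b) are of a pseudogene type in the WT table. Subunits and partners whose symbols do not match, such as Cycs or Usmg5, are in a separate list, which also holds the member Atp5mpl.

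All 17 RNA-seq libraries came from cells taken at E12.5-13.5 from mice of 1 strain, named B6J.129(Cg)-Gt(ROSA)26Sortm1.1 carrying (CAG-cas9*,-EGFP), with the suffix Fezh/J, in which the CAG promoter drives Cas9 and EGFP at the Rosa26 locus. In 14 libraries the first transgene was a guide RNA against Gata1 (sgGata1), and these cells are named Gata1s, after the short form of the GATA1 protein. The second transgene was LUC (3 libraries) or Arid3a (3) with doxycycline at 1 µg/mL for 48 h, or sh-ctrl (3), shArid3a (2, numbered 1 and 3) or miR-125b (3) with the same dose for 10 days. The 3 WT libraries carried sgLuc and shLuc, without doxycycline. The study asked what miR-125b and a changed level of Arid3a, a DNA-binding protein, do in Gata1s cells. The labels name no separate cultures, litters or clones, so p-values measure only the spread between these libraries, which may be technical. In bulk cells, fewer cells of a type and less RNA per cell cannot be told apart.

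Total counts ranged from 31339238 to 38678649 for LUC and Arid3a, from 31992089 to 40859301 for sh-ctrl, shArid3a and miR-125b, and from 16362439 to 19212193 for WT. Arid3a counts checked the labels. The gene was at 49.8, 61.4 and 63.8 CPM (counts relative to library size, scaled by TMM over all libraries) in sh-ctrl, at 22.5 and 21.5 in shArid3a and at 8.0, 10.9 and 11.1 in miR-125b. Its log2 fold change was −1.43 with shArid3a (SE 0.20, edgeR adjusted p = 0.0368) and −2.56 with miR-125b (0.000282). The first call was lost without either shArid3a library (0.0683 and 0.461), without sh-ctrl replicate 2 (0.109) or 3 (0.171) and without the ribosomal RNA-like genes (0.0524). Arid3a was at 62.4, 59.3 and 64.7 in LUC and at 53.3, 69.2 and 74.5 in the libraries labelled Arid3a, a log2 fold change of 0.08 (edgeR adjusted p = 0.737). Those libraries are therefore called by their label only. Defining genes of hepatoblasts summed to at most 21.1 CPM in any library, and lymphoid genes to at most 19.02, while 13 megakaryocyte genes summed to 2903 to 5365 CPM in the 14 Gata1s libraries. In WT, 12 myeloid genes summed to 14702 to 19824 CPM, against at most 193 elsewhere.

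The respiratory chain passes electrons from NADH (complex I) and succinate (complex II) through ubiquinone, complex III and cytochrome c to oxygen at complex IV, and complex V uses the resulting proton gradient to make ATP. Mitochondrial DNA encodes central subunits of complexes I, III, IV and V, and the nucleus encodes the rest, all of complex II and the factors that assemble them. Nuclear subunit genes are known for promoters with sites of NRF1, ETS-family factors such as GABP, and YY1. In blood formation, maturing red cells and megakaryocytes depend on mitochondria for haem and energy.

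Promoter sequences are shown because the nuclear subunit genes are known for these motifs. A match is a description, and its part in the values below was not tested. RefSeq windows (GRCm38.p6) from 250 bases before to 50 bases after the gene start were found for 78 of the 95 nuclear members tested. The NRF1-like motif, searched on both strands, was in 21 of these 78 windows (26.9%), against 5.19% of 27025 genes. The ETS-like motif CCGGAAGT was in 5 (6.41% against 4.31%) and the YY1-like motif in 6 (7.69% against 0.995%). The 78 members had enough counts for the test, while the 27025 are all genes with a window, expressed here or not. The shares are therefore of unlike sets. The letters of the NRF1-like and YY1-like motifs stand in capitals below (the NRF1-like motif allows any base at its 6th position), and no motif contains another. Capitals mark the match (either strand) in these windows of genes described below. They lie at chr5:108434430-108434459 (Atp5k, minus strand), chr6:24527697-24527726 (Ndufa5, minus), chr9:50603909-50603938 (Sdhd, minus), chr13:74350319-74350348 (Sdha, minus), chr9:108936643-108936672 (Uqcrc1, plus), chr19:7217604-7217633 (Cox8a, minus, ETS-like) and chr10:80249463-80249492 (Ndufs7, plus, YY1-like).
Atp5k: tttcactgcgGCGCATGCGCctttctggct
Ndufa5: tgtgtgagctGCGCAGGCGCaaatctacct
Sdhd: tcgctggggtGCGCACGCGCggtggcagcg
Sdha: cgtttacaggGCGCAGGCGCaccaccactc
Uqcrc1: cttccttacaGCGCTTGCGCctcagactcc
Cox8a: atttccgaaatACTTCCGGctcgggcgtcc
Ndufs7: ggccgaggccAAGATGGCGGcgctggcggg

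The microRNA and its matches among the members are shown because miR-125b defines 1 group. RefSeq gives the mature miR-125b-5p, the same from genes on chromosomes 9 and 16, with its seed in capitals. Below it stand the 3 members whose 3′ untranslated region (GENCODE M21) holds the 8mer CTCAGGGA, each with the match in capitals.
miR-125b-5p: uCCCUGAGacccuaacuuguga
Ndufs4: actaaaccactCTCAGGGAaattcttttgt
Sdhaf2: catctgtaagaCTCAGGGAgtacctattgt
Uqcr11: ggtctgcaccgCTCAGGGAgcttccatgtt

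These 3 are 3.26% of 92 members with such a region, against 6.87% of 11522 genes tested. With miR-125b, 68 of the 95 nuclear members tested and 12.1% of all genes were called higher than in sh-ctrl (edgeR), and these 3 were among them, by 0.63 for Ndufs4 (a complex I subunit), 0.47 for Sdhaf2 (a complex II assembly factor) and 0.72 for Uqcr11 (a complex III subunit) on the log2 scale. Calls were lost for all 3 without sh-ctrl replicate 3, for Ndufs4 and Sdhaf2 also without miR-125b replicate 1 or 3, for Ndufs4 without sh-ctrl replicate 2, and for Sdhaf2 without sh-ctrl replicate 1 or with library totals alone. The shorter match CTCAGGG was in 7 of the 92 members (7.61%, against 18.9% of the 11522 genes). Beside the 3 above, it was in Atp5g2, with a log2 fold change of 0.45 with miR-125b, Cox7a2l (0.19), Ndufv3 (0.12) and Uqcrfs1 (0.44). The part of these matches in the values was not tested.

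Nuclear members took more of all counts with miR-125b and less in WT. Their share was 1.72%, 1.68% and 1.45% in sh-ctrl, 1.93% and 2.19% in shArid3a, and 2.45%, 2.26% and 2.16% in miR-125b. It was 1.55% to 1.57% in LUC, 1.25% to 1.44% in the libraries labelled Arid3a and 0.901% to 1.14% in WT. The shArid3a and miR-125b libraries all lay above the 3 sh-ctrl libraries, the libraries labelled Arid3a all below LUC, and WT below every other library. Mitochondrial members ran otherwise. They took 4.10%, 2.39% and 4.03% of counts in sh-ctrl, 2.83% and 2.05% in shArid3a, 2.26%, 1.74% and 1.96% in miR-125b, and 1.503% to 2.16% in WT, LUC and the libraries labelled Arid3a. The sh-ctrl libraries differed most among themselves, and replicate 2 stood below replicates 1 and 3. The sum is uneven over its genes. In sh-ctrl it was 42637, 24416 and 39554 CPM, of which mt-Co1 alone had 17461, 8109 and 16795. There mt-Co2, mt-Atp6, mt-Co3, mt-Nd3 and mt-Nd4l, which have nuclear copies described below, had at most 170 CPM each. The nuclear sum divided by the mitochondrial sum was 0.420, 0.702 and 0.360 in sh-ctrl, 0.680 and 1.07 in shArid3a, and 1.09, 1.30 and 1.10 in miR-125b, where the miR-125b libraries lay above all of sh-ctrl.

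**Figure D1:**
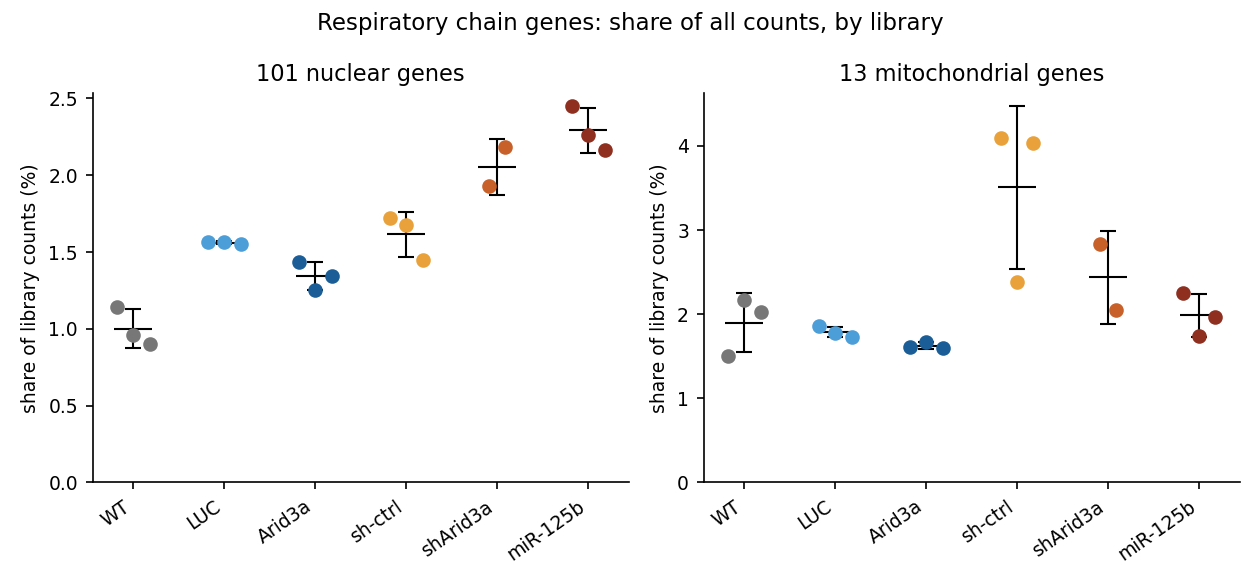
Share of all counts (%, vertical axis) taken by the 101 nuclear (left) and 13 mitochondrial (right) respiratory chain genes in each library (points), by group, with the group mean (line) and SD (bar). Nuclear shares run from 0.901% in a WT library to 2.45% in a miR-125b library, and mitochondrial shares from 2.39% to 4.10% in the sh-ctrl libraries.

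Of the 101 nuclear members, 95 had enough counts for the test in each of the 2 tables with comparisons. Cox8b, Cox8c, Cox7b2 and Ndufa11b had no count there, and Cox6a2 and Ndufa4l2 had at most 13 in either table. Per kilobase of gene, Cox8a had the highest mean level of the nuclear members in sh-ctrl, 737 CPM, followed by Cox6a1 with 630 (both small complex IV subunits), Atp5mpl, a small ATP synthase protein, with 488 and Atp5a1, the ATP synthase alpha subunit, with 440.5. Cox8a was also the highest in LUC (655.5) and miR-125b (1502). Lengths are those of the WT table, which may differ from the transcripts present.

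With miR-125b, 68 of the 95 nuclear members tested rose against sh-ctrl and 0 fell (edgeR's quasi-likelihood test, Benjamini-Hochberg adjusted p under 0.05 over 14004 genes). Over all genes, 12.1% were called higher and 12.2% lower. The median log2 fold change was 0.72, against −0.03 over all genes, and 94 members were above 0, where 48.4% of all genes were. Groups did not overlap, with miR-125b higher, for 82 members, against 21.7% of all genes. Without sh-ctrl replicate 3, 26 of the 68 calls remained, and without miR-125b replicate 1, 46. Calls over all genes fell in the same fits, from 3414 (24.4%) to 734 (5.3%) and 1766 (12.7%). The same 26 were kept in every fit that left out 1 library: the complex I subunits Ndufa3, Ndufa5, Ndufa8, Ndufa11, Ndufa12, Ndufa13, Ndufb7, Ndufb10, Ndufc2, Ndufs3, Ndufs6, Ndufs7 and Ndufv2, the assembly factor Ndufaf2, Uqcr10 of complex III, Ndufa4, Cox6a1, Cox6b1 and Cox8a of complex IV, and the complex V genes Atp5g1, Atp5g3, Atp5j, Atp5j2, Atp5k, Atp5mpl and Atp5o.

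Members of every complex rose. In complex I, 24 of 29 accessory subunits rose and 4 of 7 core subunits, with medians of 0.73 and 0.67 on the log2 scale. In complex II, 4 of 4 rose (median 0.60), in complex III 7 of 8 (0.66) and in complex IV 12 of 15 (0.80). In complex V, 11 of 17 rose. The 4 tested members of its membrane part all did (median 1.09), as did 2 of 3 genes of the c ring and 3 of 4 of the peripheral stalk. Of the F1 part, catalytic head and central stalk together, 2 of 5 rose (0.61). Of 12 assembly factors 6 rose (0.55), while the pseudogene-type members Cox6c2, Ndufb4c and Ndufs6b did not pass (0.59).

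**Figure D2:**
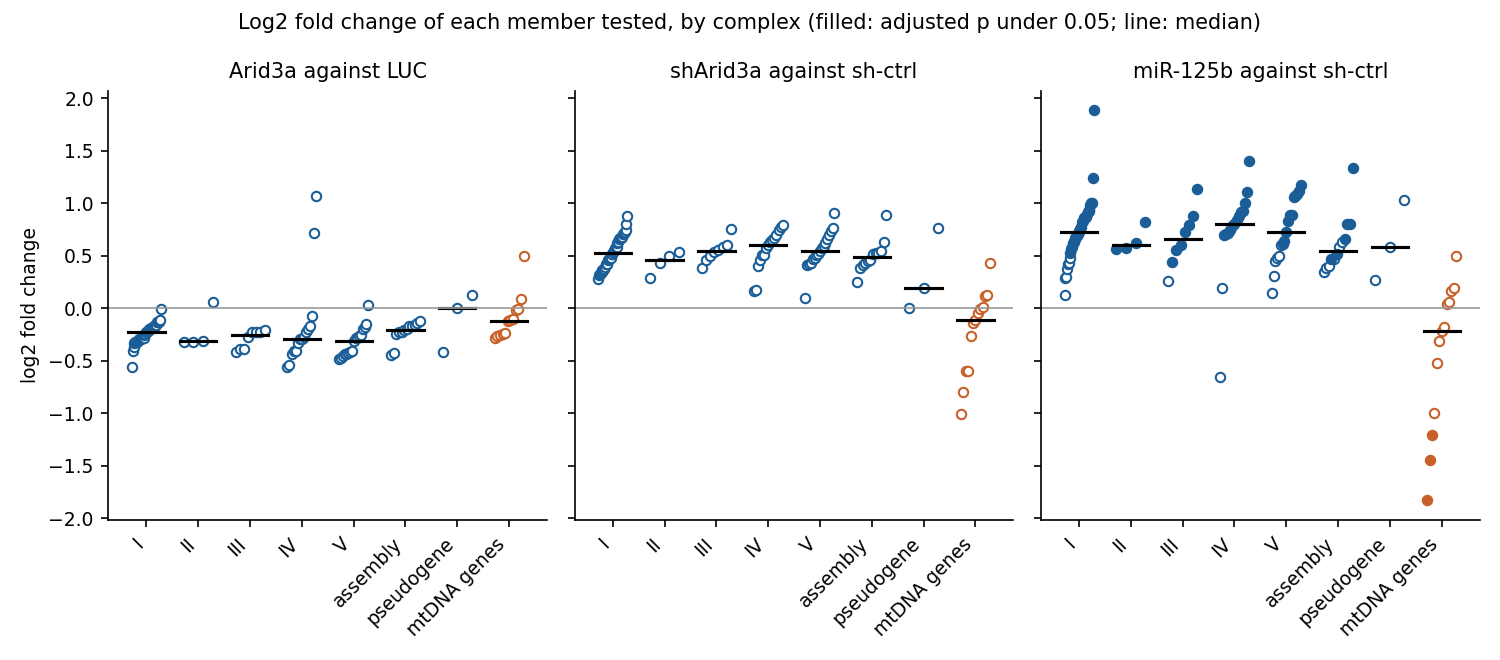
Log2 fold change (vertical axis) of each tested nuclear member, by complex, and of the mitochondrial members, in the 3 comparisons with a control; filled points have an adjusted p under 0.05 and lines are medians. With miR-125b 68 nuclear points are filled, all above 0, and in the other comparisons 0 are filled.

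Ndufa12 and Ndufa5 are accessory subunits of complex I. Ndufa12 (chromosome 10, 94198720 to 94221443, plus strand, GRCm38) was at 49.9, 40.7 and 36.1 CPM in sh-ctrl, 81.5 and 76.0 in shArid3a, and 199, 173 and 104 in miR-125b. The miR-125b libraries lay above all others, with 1.89 on the log2 scale against sh-ctrl (SE 0.23, edgeR adjusted p = 0.00304). This size is uncertain, since a processed pseudogene, Gm15920, shares 221 bases at 99.5% identity with it. Gm15920 was at 80.0, 80.6 and 67.5 CPM in sh-ctrl, 68.8 and 135 in shArid3a and 64.4, 48.9 and 96.3 in miR-125b. With the counts of both added, the sums were 130, 121 and 104 in sh-ctrl, 150 and 210 in shArid3a and 264, 222 and 200 in miR-125b, with a log2 fold change of 0.92 for miR-125b (SE 0.16, edgeR adjusted p = 0.00758). Ndufa5 (chromosome 6, 24518666 to 24528013, minus strand) was at 80.2, 83.9 and 75.0 CPM in sh-ctrl, 104 and 162 in shArid3a, and 208, 189 and 176 in miR-125b. The groups did not overlap, and its log2 fold change with miR-125b was 1.24 (SE 0.16, edgeR adjusted p = 0.00348).

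Atp5k, the e subunit of ATP synthase, was at 95.2, 98.1 and 77.7 CPM in sh-ctrl, 138 and 206 in shArid3a, and 217, 181 and 199 in miR-125b (chromosome 5, 108433244 to 108434448, minus strand). All 5 treated libraries lay above sh-ctrl, by 1.12 with miR-125b (log2, SE 0.17, edgeR adjusted p = 0.00537). Ndufc2, a complex I subunit, was at 94.0, 83.3 and 71.4 CPM in sh-ctrl and 192, 161 and 152 in miR-125b, 1.00 on the log2 scale (SE 0.15, edgeR adjusted p = 0.00548). Ndufa13, another, was at 94.0, 89.3 and 87.8 against 164, 164 and 171 (0.86, SE 0.14, edgeR adjusted p = 0.00609). Ndufaf2, which takes part in the assembly of complex I, was at 20.7, 23.7 and 18.05 against 63.9, 49.4 and 46.8 (1.34, SE 0.21, edgeR adjusted p = 0.00609). In each of these genes the groups lay well apart, with every miR-125b library above every sh-ctrl library.

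Subunits chosen to stand for each complex varied in how firmly they passed. Sdha, the flavoprotein of complex II, was at 258, 309 and 282 CPM in sh-ctrl and 446, 437 and 401 in miR-125b, 0.58 on the log2 scale (SE 0.12, edgeR adjusted p = 0.0131, and 0.0571 without sh-ctrl replicate 3). Cox5a, a nuclear-encoded subunit of complex IV, was at 137, 132 and 90.4 against 228, 201 and 172, a log2 fold change of 0.72 (edgeR adjusted p = 0.0216). Its call was lost on leaving out sh-ctrl replicate 3 (0.0774), or replicate 1 (0.0623) or 2 (0.0517) of miR-125b. Uqcrc1, a core protein of complex III, was at 287, 377 and 279 against 542, 476 and 432, and its 0.60 (edgeR adjusted p = 0.025) was lost without sh-ctrl replicate 1 or 3, without miR-125b replicate 1 or 2 and with library totals alone. The catalytic beta subunit of ATP synthase, Atp5b, was at 1450, 2001 and 1491 CPM against 2596, 2319 and 2071, which did not pass the test (0.48, edgeR adjusted p = 0.0683, but called without sh-ctrl replicate 2 and by DESeq2). Ndufs1, an iron-sulphur subunit of complex I, was at 94.6, 102 and 101 against 132, 121 and 119, and did not pass either (0.30, edgeR adjusted p = 0.0676). Groups did not overlap in any of these 5 genes.

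**Figure D3:**
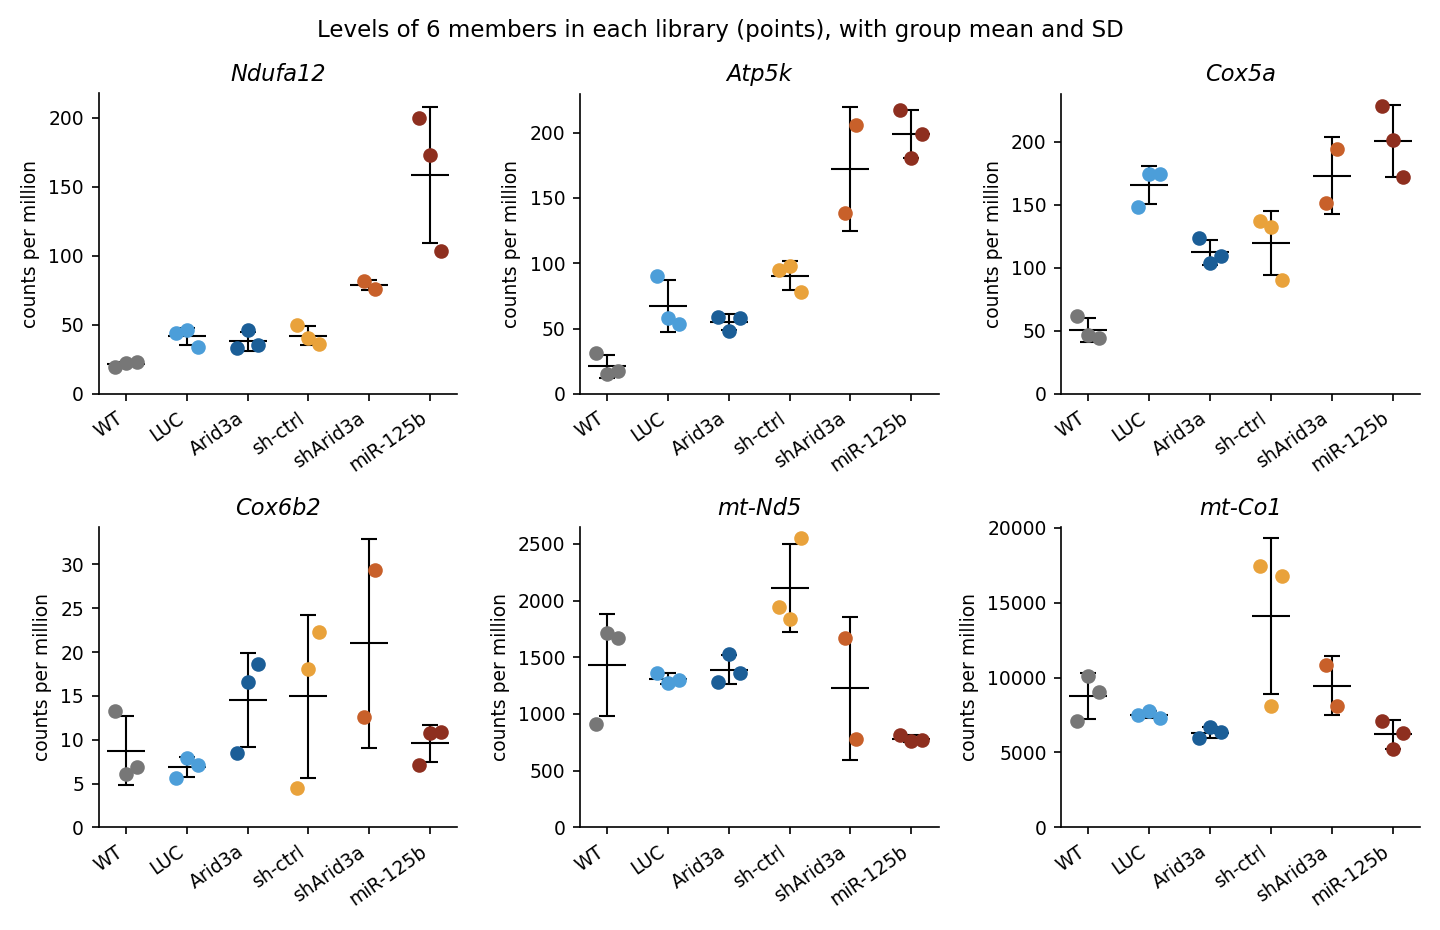
Levels (CPM, TMM-scaled, vertical axes from 0) of Ndufa12, Atp5k, Cox5a, Cox6b2, mt-Nd5 and mt-Co1 in each library (points), by group, with group mean (line) and SD (bar). Atp5k lies between 181 and 217 CPM in miR-125b and between 77.7 and 98.1 in sh-ctrl, while mt-Nd5 lies between 764 and 817 against 1842 and 2551.

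Several complex IV subunits exist in a widely expressed form and a form restricted to muscle, lung, testis or hypoxic cells. The widely expressed forms were abundant and were called higher with miR-125b: Cox4i1 by 0.75, Cox6a1 by 0.88, Cox6b1 by 0.92, Cox7a2 by 0.93, Cox7b by 0.78, Cox8a by 1.01 and Ndufa4, now counted with complex IV, by 1.11 on the log2 scale. Without sh-ctrl replicate 3, Cox4i1, Cox7a2 and Cox7b lost the call. Cox7a1, the form of heart and skeletal muscle, was scarce, at 1.49, 1.41 and 0.653 CPM in sh-ctrl and 3.03, 2.997 and 3.47 in miR-125b (1.40, edgeR adjusted p = 0.032). That call was lost without sh-ctrl replicate 3 or any 1 of the miR-125b libraries (adjusted p from 0.00703 to 0.114 over 17 alternatives). Cox7a2l, which takes part in joining complexes III and IV, was at 236, 209 and 180 CPM against 254, 240 and 230, where groups overlapped (0.19, edgeR adjusted p = 0.313). Cox6b2, the testis form, was the 1 nuclear member below 0 with miR-125b (−0.66, edgeR adjusted p = 0.353). It varied widely, at 4.51, 18.1 and 22.2 CPM in sh-ctrl, 12.6 and 29.4 in shArid3a and 7.10, 10.8 and 10.9 in miR-125b, and without sh-ctrl replicate 1 it was called lower (adjusted p = 0.0481).

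With the hairpin against Arid3a, all 95 nuclear members tested had a fold change above 0 against sh-ctrl, where 48.4% of all genes did. By edgeR 0 were called, in a comparison in which 0.0857% of 14004 genes were. At an unadjusted p under 0.05 there were 72 higher members (13.3% of all genes were higher at that level) and 0 lower. DESeq2 called 34, all higher, where it called 10.8% of all genes. Without a filter on low counts edgeR called 36, all higher, and 5.7% of all genes. The median log2 fold change was 0.52, against −0.02 over all genes, and 74 members had both shArid3a libraries above all 3 sh-ctrl libraries, against 21.3% of all genes. The comparison rests on 2 libraries that differ: the median was 0.38 without shArid3a replicate 3 and 0.69 without replicate 1. This comparison shares its sh-ctrl libraries with that of miR-125b, so the effects are set side by side only.

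Among the members with the smallest p, Atp5k had 0.90 on the log2 scale (SE 0.18), Ndufc2 of 0.80 (SE 0.17) and Cox8a of 0.79 (SE 0.19). Ndufa12 had 0.88, and 0.57 with the counts of Gm15920 added. Cox8a was at 464, 415 and 325 CPM in sh-ctrl, 660 and 754 in shArid3a and 955, 762 and 739 in miR-125b. Ndufa5 had 0.71 (SE 0.17), Ndufb10, an accessory complex I subunit, 0.68 and Uqcrfs1, the Rieske iron-sulphur protein of complex III, 0.58. None was called: the edgeR adjusted p was 0.0989 for Atp5k, Ndufc2, Cox8a and Ndufa5 and 0.101 for Ndufa12, Uqcrfs1 and Ndufb10. Uqcrfs1 was at 145, 145 and 129 CPM in sh-ctrl, 198 and 228 in shArid3a and 222, 179 and 176 in miR-125b. Medians by complex were 0.53 for I, 0.46 for II, 0.55 for III, 0.61 for IV, 0.54 for V and 0.49 for assembly factors. Core subunits had 0.42 (Ndufs1), 0.50 (Sdha) and 0.51 (Atp5b).

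Set directly against shArid3a, without sh-ctrl, miR-125b had 0 of the 95 nuclear and 0 of the 13 mitochondrial members called by edgeR, against 1.35% of 14004 genes. DESeq2 called 2 nuclear members and 4.93% of all genes. At an unadjusted p under 0.05, 8 nuclear members were higher with miR-125b (7.32% of all genes) and 1 mitochondrial member was lower (7.2%). The nuclear median was 0.20, with 80 of 95 above 0, against 49.4% of all genes. It was 0.04 without shArid3a replicate 1 and 0.36 without replicate 3. Ndufa12 had 1.01 (SE 0.25, edgeR adjusted p = 0.0861) and was called with the replicate block (0.0481), without a filter, by DESeq2 and without miR-125b replicate 3, but had an adjusted p of 0.413 with the counts of Gm15920 added. Ndufa5 had 0.53 (edgeR adjusted p = 0.197). Others above 0 with the smallest p were Ndufaf2 (0.79), Sdhb (0.53), Atp5o (0.48) and Ndufb7 (0.46). Below 0 were 15 members, and those with the smallest p were Cox6b2 (−1.12), Ndufv3 (−0.34), Uqcrfs1 (−0.14), Atp5g2 (−0.14), Uqcrc2 (−0.13) and Ndufs1 (−0.12).

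In the libraries labelled Arid3a, nuclear members lay below LUC. Of the 95 tested 89 had a fold change below 0, against 48.6% of all genes, with a median of −0.25 against 0.01. By edgeR 0 were called, as were 0% of 13495 genes. At an unadjusted p under 0.05, 49 were lower (10.5% of all genes) and 1 was higher (10.9%). DESeq2 called 23 lower and 1 higher, and 10.6% of all genes in either direction. Groups did not overlap, with LUC higher, for 57 members, against 14.4% of all genes. The count rests on 1 library: without replicate 1 of the libraries labelled Arid3a, edgeR called 61 members lower and 1 higher, and the median was −0.36. In that fit 3198 of all genes (23.2%) were called in either direction, in place of 0.

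Cox5a was at 148, 174 and 174 CPM in LUC and 123, 104 and 109 in the libraries labelled Arid3a, −0.56 on the log2 scale (SE 0.10, edgeR adjusted p = 0.0828). Cox8a was at 337, 363 and 371 against 282, 220 and 234 (−0.54, edgeR adjusted p = 0.0889). Sdhd, which anchors complex II in the membrane, was at 233, 248 and 230 against 182, 194 and 197 (−0.31, edgeR adjusted p = 0.0889). In these 3 genes every LUC library was the higher. Among the ATP synthase genes, Atp5g1 (a c-ring subunit) had −0.43, Atp5o (of the peripheral stalk) −0.45 and Atp5l (subunit g) −0.43, with edgeR adjusted p from 0.0877 to 0.0895. Atp5o was at 193, 212 and 212 CPM against 167, 139 and 145. Core subunits had −0.23 (Uqcrc1), −0.15 (Atp5b) and 0.06 (Sdha), none called. Sdha was at 356, 345 and 346 CPM against 323, 394 and 372, with overlapping groups. Cox6b2 ran the other way, at 5.63, 7.94 and 7.15 CPM in LUC and 8.44, 16.6 and 18.6 in the libraries labelled Arid3a (1.07, SE 0.29, edgeR adjusted p = 0.111).

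Of the 13 mitochondrial members, 3 fell with miR-125b and 0 rose by edgeR. Over all genes, 12.2% were called lower and 12.1% higher. The median of the 13 was −0.22, and 5 lay above 0, against 48.4% of all genes. The highest were mt-Co3 (0.50, edgeR adjusted p = 0.427) and mt-Atp6 (0.19, 0.72). Groups overlapped for the 10 not called. The gene mt-Nd5, for a proton-pumping subunit of complex I (11742 to 13565 of the mitochondrial genome, plus strand), was at 1939, 1842 and 2551 CPM in sh-ctrl, 1673 and 779 in shArid3a, and 817, 764 and 770 in miR-125b. It fell by 1.45 on the log2 scale (SE 0.26, edgeR adjusted p = 0.00755), and of the 3 it alone was called in every alternative. The gene mt-Co1, for the catalytic subunit of complex IV (5328 to 6872, plus strand), was at 17461, 8109 and 16795 CPM in sh-ctrl, 10835 and 8089 in shArid3a and 7105, 5222 and 6268 in miR-125b. Its −1.20 (SE 0.28, edgeR adjusted p = 0.0164) missed the threshold when sh-ctrl replicate 3 (0.0652) or the miR-125b replicate 2 library (0.052) was left out. The lowest sh-ctrl library, replicate 2, lay near the highest of miR-125b. The small complex I subunit gene mt-Nd4l was at 3.36, 3.84 and 6.81 against 1.64, 0.887 and 1.46 (−1.83, SE 0.46, edgeR adjusted p = 0.0212). That call was lost on leaving out sh-ctrl replicate 3 (0.096), or replicate 2 (0.0637) or 3 (0.0511) of miR-125b. It rests on 108, 120 and 250 counts in sh-ctrl and 46, 29 and 52 in miR-125b. The adjoining mt-Nd4, which overlaps mt-Nd4l by 7 bases, had 0.04 (edgeR adjusted p = 0.88). Since mt-Nd4l is also matched by a nuclear copy, described below, its value is uncertain.

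The remaining complex I genes and mt-Cytb, for the cytochrome b of complex III, did not pass. The level of mt-Cytb was 6615, 4272 and 6475 CPM in sh-ctrl and 5508, 4182 and 4484 in miR-125b (−0.31, edgeR adjusted p = 0.272), and that of mt-Nd2 was 4484, 2434 and 3597 against 3148, 1994 and 2274 (−0.52, edgeR adjusted p = 0.154). Groups overlapped in both. Neighbours of mt-Nd5 overlapped between the groups and did not pass: mt-Nd4 was at 1945 ± 249 CPM (SD, n = 3) in sh-ctrl and 2026 ± 384 (SD, n = 3) in miR-125b, and mt-Nd6, which is encoded on the other strand and overlaps mt-Nd5 by 14 bases, at 676 ± 43.6 (SD, n = 3) and 765 ± 121 (SD, n = 3). Genes of 1 mitochondrial strand are transcribed as long joint precursors and then, for the most part, cut apart, as background.

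**Figure D4:**
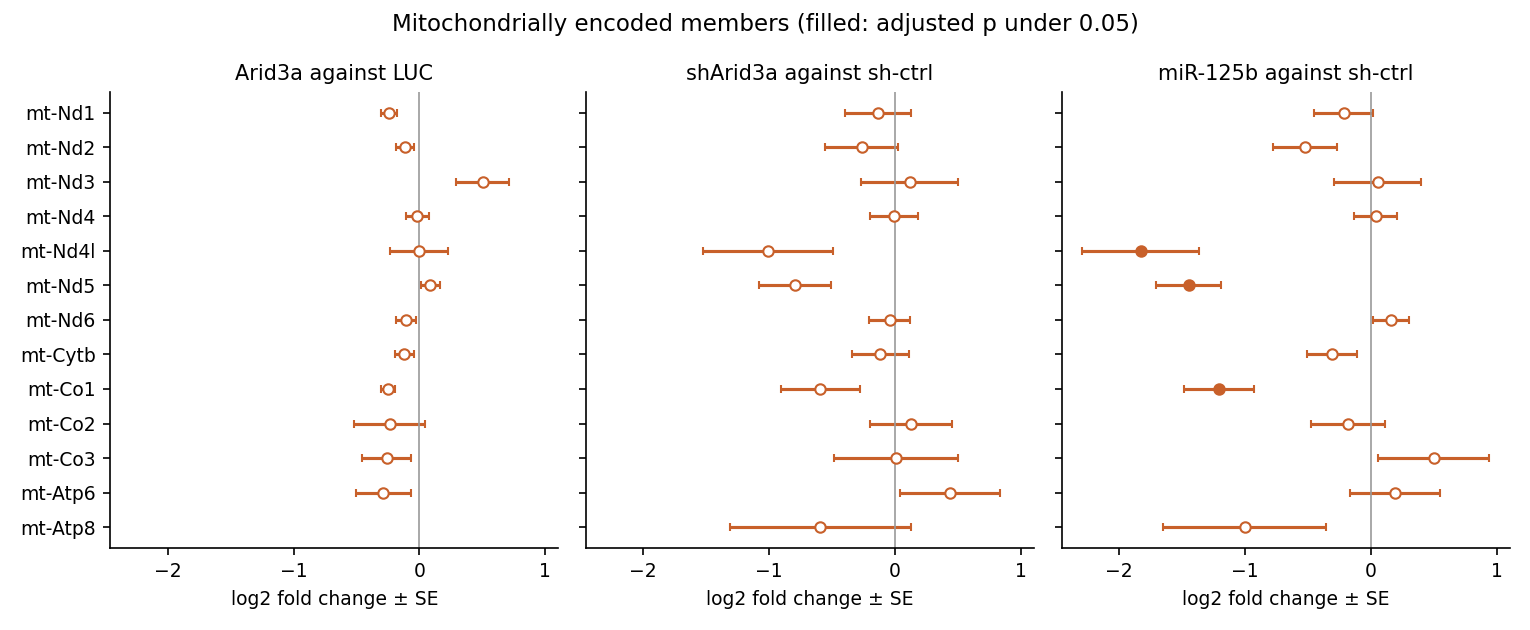
Log2 fold change (horizontal axis, same scale in each panel) with its standard error for each mitochondrially encoded member tested, in the 3 comparisons with a control; filled points have an adjusted p under 0.05. With miR-125b, mt-Nd4l (−1.83), mt-Nd5 (−1.45) and mt-Co1 (−1.20) are filled.

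With shArid3a, 0 of 13 mitochondrial members were called (DESeq2 called 1, and 1 was lower at an unadjusted p under 0.05). The values were −0.80 for mt-Nd5 (edgeR adjusted p = 0.135), −1.01 for mt-Nd4l (0.244) and −0.59 for mt-Co1 (0.259), and the median was −0.12. Of the 13, 4 lay above 0, against 48.4% of all genes, the highest being mt-Atp6 (0.43, edgeR adjusted p = 0.513). The mt-Nd5 value was −0.33 without shArid3a replicate 3 and −1.47 without replicate 1. In the libraries labelled Arid3a, 0 of the 12 tested were called by edgeR and 2 by DESeq2, which called 10.6% of all genes. At an unadjusted p under 0.05, 2 were lower (10.5% of all genes) and 1 was higher (10.9%). The median of the 12 was −0.12. The gene mt-Co1 was at 7504, 7772 and 7318 CPM in LUC against 5966, 6666 and 6345 (−0.25, edgeR adjusted p = 0.0895), and mt-Nd1 at 3086, 2909 and 2717 against 2449, 2522 and 2392 (−0.24, edgeR adjusted p = 0.102). In both, LUC was the higher in every library. Without replicate 1 of the libraries labelled Arid3a both were called lower, in a fit that called 23.2% of all genes. The value of mt-Nd3 was 0.50 (edgeR adjusted p = 0.226).

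Nuclear copies of mitochondrial sequence make some of these values uncertain. In GENCODE M21 (GRCm38), mt-Co2, mt-Atp6, mt-Co3 and mt-Nd4l are matched at 100% over almost their whole length by pseudogenes on chromosome 1, and mt-Nd3 at 99.7%. Over the 17 libraries mt-Co2 had 42812 counts and its copy Gm28661 23978, and mt-Atp6 had 21022 and its copy Gm10925 22811. For mt-Nd4l the counts were 1432 and, in Gm10222, 909. Stretches of at least 200 bases at 99% identity were found for 7 of the 13 genes, mt-Co1 and mt-Nd4 among them, but not for mt-Nd1, mt-Nd2, mt-Nd5, mt-Nd6, mt-Cytb or mt-Atp8. With the counts of such copies added, mt-Nd4l had −1.79 (edgeR adjusted p = 0.0223) and mt-Co1 −1.21 (0.0165) with miR-125b. Any reads that match both places and were counted in neither are not restored by this, so the values stay uncertain. With its copy, mt-Nd4l was at 5.57, 5.94 and 11.4 CPM in sh-ctrl, where the adjoining mt-Nd4 was at 1995, 1674 and 2165. Among the nuclear members 10 had such a copy. With it added, Atp5g1 had 1.03 with miR-125b (edgeR adjusted p = 0.00811), and 69 members in place of 68 were called higher. In addition, 32 nuclear members share exonic bases with a gene on the other strand, such as Ndufaf2 (1955 bases with B230220B15Rik, the longest overlap among them), Ndufa13 (375 with Tssk6), Cox5a, Cox4i1, Atp5o, Atp5l and Ndufs1, and whether strand was used in counting is not given in the sources used here.

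Gene length and the counts of ribosomal RNA-like genes moved with these comparisons. Of other protein-coding genes under 1000 bases, 78.8% lay above 0 with miR-125b, with a median of 0.55 and 39.2% called. The 28 nuclear members of that length had a median of 0.85, with all 28 above 0 and 85.7% called. At 4000 bases or more the median was −0.24 for other genes and 0.62 for the 10 members, all above 0. With shArid3a the medians were 0.45 and 0.59 under 1000 bases, and −0.21 and 0.48 at 4000 or more. In the libraries labelled Arid3a they were −0.27 and −0.29 for short genes, and 0.12 and −0.21 for long ones. In all 4 length classes the median of the nuclear members lay above that of other genes with miR-125b and with shArid3a, and below it in the libraries labelled Arid3a, where the gap was smallest among short genes. These lengths are those of the WT table, such as 5628 bases for Ndufb2, and may differ from the transcripts present. Members and other genes of 1 class may therefore differ in transcript length. Over 92 members, Spearman's rho of the log2 fold change with length was −0.382 with miR-125b, −0.386 with shArid3a and 0.147 in the libraries labelled Arid3a, as a description of genes that share libraries.

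**Figure D5:**
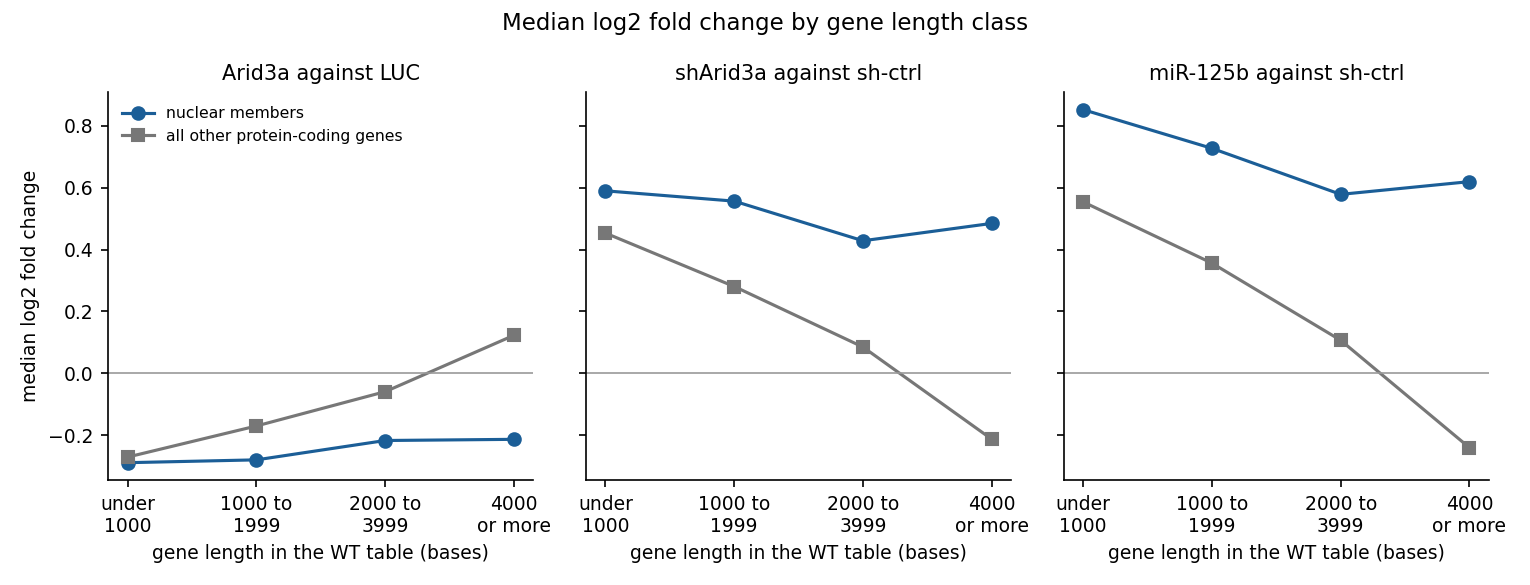
Median log2 fold change (vertical axis) of the nuclear members (circles) and of all other protein-coding genes (squares) in 4 classes of gene length in bases (horizontal axis), for the 3 comparisons with a control. With miR-125b other genes go from 0.55 to −0.24 from the shortest to the longest class and the members from 0.85 to 0.62.

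Genes listed from general knowledge as ribosomal RNA-like, Lars2 among them, took 0.0388% to 0.0697% of counts in sh-ctrl. They took 0.302% and 0.318% in shArid3a and 0.237% to 0.337% in miR-125b. Whether their counts come from ribosomal RNA was not tested. Against sh-ctrl, 5 of 6 were called higher both with shArid3a and with miR-125b, Lars2 by 3.39 with shArid3a and 3.10 with miR-125b. In the libraries labelled Arid3a they took 0.0392% to 0.0704%, against 0.0538% to 0.109% in LUC, and all 6 lay below 0 (median −1.05, 0 called). Without these genes 68 nuclear members were again called with miR-125b. Cell type markers were called too. With miR-125b, of 13 megakaryocyte genes 6 were called lower and 1 higher (sum 3323 to 4225 CPM in miR-125b, 3520 to 5365 in sh-ctrl), and of 12 erythroid genes tested 3 lower (397 to 424 against 604 to 913). Of 9 myeloid genes 3 were called higher (107 to 193 against 79.0 to 123), and of 10 mast cell genes 2 (34.2 to 437 against 7.13 to 100). Both hepatoblast genes tested were called higher, with sums of 4.46 to 6.46 CPM against at most 1.44. Of the myeloid genes Itgam and S100a9 were at 0 in all sh-ctrl libraries. With shArid3a 0 markers were called, and 10 of 13 megakaryocyte genes lay below 0 (median −0.49, sum 3721 to 4080 CPM). In the libraries labelled Arid3a 0 were called, and 8 of 13 erythroid genes tested lay above 0 (median 0.68, sum 622 to 1334 CPM, against 732 to 822 in LUC). The part of length, ribosomal RNA-like genes and cell type in the results above was not tested.

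Other genes of the pathway, from lists written from general knowledge, were counted in the same way with miR-125b, where 12.1% of all genes were called higher and 12.2% lower. Subunits under other names rose in 5 of 5, among them Atp5mpl, also a member (1.17 on the log2 scale), and Cycs, the electron carrier cytochrome c (0.92). Of 40 assembly factors under other names 9 rose and 1 fell (median 0.38), with Cmc2, of complex IV assembly, at 0.98 and Uqcc3, of complex III assembly, at 0.87. Coenzyme Q synthesis had 3 higher and 1 lower of 13, with Coq4 at 0.90 and the kinase-like Coq8a at −1.36. Genes that copy, transcribe and translate mitochondrial DNA had 7 higher and 1 lower of 32. Among these were Slirp, which stabilizes mitochondrial messenger RNA (0.99), and Hsd17b10, part of mitochondrial RNase P (0.91). Regulators of mitochondrial biogenesis had 0 higher and 1 lower of 9, Gabpb2, a GABP subunit (−0.94), and Ppargc1a was listed at 0 in all libraries.

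The citric acid cycle and pyruvate dehydrogenase list had 6 higher and 0 lower of 18, such as Mdh2, malate dehydrogenase (0.85), and Sucla2, of succinyl-CoA synthetase (0.58). Of 5 carriers 3 rose, Slc25a4, the ADP/ATP carrier, by 1.20 and Slc25a3, the phosphate carrier, by 0.60. Import, membrane and chaperone genes had 8 higher and 1 lower of 19, with the import pore Tomm40 at 0.90 and the protease Clpp at 0.71. The hypoxia response list had 1 higher and 5 lower of 13, with Vegfa, the vascular growth factor, at −2.52 and Ero1l, an oxidase of the endoplasmic reticulum, at −1.12. Without sh-ctrl replicate 3, the calls of Cmc2, Coq4, Mdh2, Slc25a3 and Sucla2 were lost. Slc25a3 and Sucla2 also lost theirs without miR-125b replicate 1, and Sucla2 without sh-ctrl replicate 1. In shArid3a and in the libraries labelled Arid3a, 0 genes of these 9 lists were called by edgeR. Their subunit lists had medians of 0.61 and −0.41. The DESeq2 calls there included Slirp (0.89) and the chaperonin gene Hspd1 (0.86) with shArid3a, and Atpif1, the ATP synthase inhibitor (−0.44), in the libraries labelled Arid3a.

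WT libraries were described without a test, since guide, hairpin, doxycycline, table and, by the marker sums, cell makeup all differ from the other groups and cannot be told apart. Of the nuclear members, 41 lay below all 14 Gata1s libraries in WT and 2 above, where 15.7% of 16587 genes lay below and 21% above. Mean levels in WT were 0.188 times those of the other libraries for Atp5k (21.2 against 113 CPM), 0.247 times for Atp5g1 and 0.259 times for Atp5mpl. The pseudogene-type Cox6c2 was at 0.0855 CPM against 4.61. Those above were Cox4i2, the lung and hypoxia form of subunit 4, with 14.5, 18.6 and 13.7 CPM against a mean of 1.14, and Cox6a2, the muscle form, with 1.32, 0.610 and 1.26 against 0.0323. Of the mitochondrial members mt-Nd1 and mt-Nd2 lay below all other libraries (0.375 and 0.396 times their mean).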

How the data were processed

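Raw whole-number counts of reads were deposited for each gene. The authors made them with fastp, HISAT2 2.0.5 and featureCounts on genome build mm10, per the submitters' processing notes. The use of strand is not given in the sources used here. The 3 tables (LUC and Arid3a; sh-ctrl, shArid3a and miR-125b; WT) were joined by Ensembl identifier, and all count columns were used. The shArid3a replicate 2 is not used here.

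Each table with a comparison was fitted with edgeR 4.0.16 in R 4.3.3 (TMM, filterByExpr, quasi-likelihood, 1 term per group), and p-values were adjusted by the Benjamini-Hochberg method over all genes tested, with calls under 0.05. Standard errors come from the F statistic. CPM was computed from the counts of all 17 libraries with TMM. Named genes were drawn from the mitochondrial members, 1 core subunit per complex, the restricted forms of complex IV subunits and the 2 leading genes of a list. In each comparison they were also drawn from the 6 nuclear members higher and the 6 lower with the smallest p (average log2 CPM of at least 3). Ndufs4, Sdhaf2, Uqcr11 and the members with the shorter match were named for their miR-125b match. Atp5a1, Atp5mpl, the members named for WT and the 26 calls kept without any 1 library were named after their values were seen. The members and lists were chosen with earlier results of these data known.

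Alternatives were RLE and DESeq2 1.42.0, library totals, scaling without mitochondrial genes, other filters, a robust fit, a replicate block, the fit of 2 groups alone, leaving out each library, and, chosen after seeing the data, adding the counts of near copies (at least 200 bases at 99% identity, by BLAST). The main fits used no pairing, and the labels do not say that a replicate number marks a shared culture. Deviations of same-numbered sh-ctrl and miR-125b libraries from their group means correlated at 0.427, 0.151 and 0.294. For different numbers the correlations ran from −0.364 to 0.205. The fitting code was tested on simulated data.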

Additional observations from a re-analysis of the deposited data

How the results depend on the processing

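Nuclear members called with miR-125b against sh-ctrl numbered 56 to 77 in the alternatives that kept every library, all higher, with library totals alone the lowest and DESeq2 the highest. Fits that left out a library gave 26 to 68 nuclear calls (all higher but Cox6b2, lower without sh-ctrl replicate 1) and 1 to 3 mitochondrial calls. Library totals alone moved the median of all genes from −0.03 to −0.22 and that of the nuclear members from 0.72 to 0.53, and moved the summed nuclear CPM to 15614 in LUC, 13442 in the libraries labelled Arid3a and 22928 in miR-125b, and the summed mitochondrial CPM to 17881 in LUC and 16275 in the libraries labelled Arid3a. The nuclear share in LUC was 1.59% of counts outside the mitochondrial genome and the ribosomal RNA-like genes. With the replicate block, 68 nuclear and 3 mitochondrial members were called with miR-125b, 1 nuclear member against shArid3a (Ndufa12), and 0 in the other comparisons. In the table of LUC and the libraries labelled Arid3a the same-number correlations were 0.158, 0.365 and 0.0084. Those of different numbers ran from −0.345 to 0.2. Whether a number marks a pair in either table cannot be told from these values. For shArid3a only the numbers 1 and 3 exist.

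For shArid3a, DESeq2 called 34 nuclear and 1 mitochondrial members (1339 of all genes) and the fit without a filter 36 and 1 (1237), while leaving out a library gave 0 of both. For the libraries labelled Arid3a, DESeq2 called 24 nuclear and 2 mitochondrial members (1201 of all genes), and leaving out a library gave 0 to 62 and 0 to 2 (3198 of all genes without replicate 1 of the libraries labelled Arid3a, and 0 without any other). For miR-125b against shArid3a, DESeq2 and the fit without a filter each called 2 nuclear members (715 of all genes in both), and leaving out a library gave 0 to 1. The cause of these changes was not tested. Among named values, the direction of Sdha (−0.00098 to 0.14) and Arid3a (−0.019 to 0.21) in the libraries labelled Arid3a, and of Cox6b2 in shArid3a (−0.24 to 0.94), turned in a fit that left out 1 library. The shArid3a comparison has 2 libraries on 1 side, and members with no or few counts could not be tested at this depth.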
